A study of Mus musculus with 12 samples.

Results

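The genes described here encode 8 proteins of the central myelin sheath or its oligodendrocyte (Mbp, Mobp, Mag, Mog, Cnp, Cldn11, Mal and Opalin) and the oligodendrocyte receptor Gpr37. They are 9 of the 48709 gene IDs counted in each library, and all 9 were among the 16829 genes that passed the filter on low counts and were tested. The genes were selected on results of the same contrast and the same libraries, MI against Sham and their co-variation, so their values in that contrast are given as a description and support nothing beyond themselves. The samples were 6 libraries from mice whose coronary artery had been ligated to produce a myocardial infarction (MI), and 6 from mice given the same surgery without the ligation (Sham). Polyadenylated RNA of microdissected hippocampal CA1 tissue was read as single-end 50 base reads, and strain, age, sex and the time after surgery are not given in the labels. Library totals ran from 20764133 to 35643127 assigned reads. Nothing in the labels says that the libraries of a group came from separate animals, so the spread between them may be in part technical.

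Myelin is the layered membrane that oligodendrocytes wrap around axons of the central nervous system. Mbp holds the cytoplasmic faces of the layers together, and Mobp is another small basic protein of the same compact layers. Mag and Mog are immunoglobulin-type proteins of the innermost and outermost surfaces. Cnp is an enzyme of the cytoplasm-filled channels, Cldn11 forms the tight junctions between layers, Mal is a lipid raft protein of myelin membrane, and Opalin is a membrane protein of the paranodal loops. Gpr37 is a G protein-coupled receptor of oligodendrocytes; in mice, loss of it makes oligodendrocytes differentiate early.

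In the GENCODE M21 annotation of mm10, Mbp (ENSMUSG00000041607) lies on chromosome 18 from 82475146 to 82585637 on the plus strand. Mobp (ENSMUSG00000032517) lies on chromosome 9 from 120149707 to 120181484 and Cnp (ENSMUSG00000006782) on chromosome 11 from 100574904 to 100591729, both on the plus strand. Cldn11 (ENSMUSG00000037625) lies on chromosome 3 from 31149920 to 31164324, also on the plus strand. The other 5 are on the minus strand. Mag (ENSMUSG00000036634) lies on chromosome 7 from 30899176 to 30914873, and Mog (ENSMUSG00000076439) on chromosome 17 from 37010743 to 37023398. Mal (ENSMUSG00000027375) lies on chromosome 2 from 127633226 to 127656695, Opalin (ENSMUSG00000050121) on chromosome 19 from 41061710 to 41077113, and Gpr37 (ENSMUSG00000039904) on chromosome 6 from 25665878 to 25690729. All are protein-coding. Cnp shares 154 exon bases with Dnajc7 on the opposite strand. The kit does not mark strand, so reads of those bases cannot be assigned to one gene. Mobp shares 79 exon bases with Gm38642 on the same strand, and Gm38642 is not among the gene IDs counted.

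The level of a gene is given per length as CPM, a count scaled to the size of its library, per kilobase of exon, averaged over the 12 libraries. Mbp was highest at 243 CPM per kilobase, rank 70 of the 16783 genes ranked. The other structural genes followed, with Mobp at 108, Cnp at 79.2, Mal at 72.9, Cldn11 at 55.4, Mag at 36.2 and Mog at 30.7 CPM per kilobase. Gpr37 and Opalin were far below these, at 11.2 and 7.29 CPM per kilobase. In MI libraries the ranges of mean ± SD of neighbours in that order overlapped for Cnp with Mal (90.9 ± 8.22 and 85.9 ± 13.7 CPM per kilobase) and for Mag with Mog (42.8 ± 3.88 and 35.96 ± 4.53; SD, n = 6 each). In Sham libraries, with their wider spread, they overlapped for all neighbours but Mbp with Mobp and Mog with Gpr37. Mbp and Mobp had 197 ± 58.6 and 86.6 ± 31.2 CPM per kilobase there. Mog and Gpr37 had 25.4 ± 7.53 and 9.80 ± 2.71 CPM per kilobase (SD, n = 6 each). The genes share their libraries and vary together between them, so such overlap does not compare genes within a library.

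The DNA upstream of the genes was read because the genes varied together from library to library. RefSeq promoter windows of GRCm38.p6 were at hand for 8 of the 9 genes, all but Mbp, in 10 windows, of which Mag had 3. The 250 bases before each start were searched on both strands for ACAAAG, a core sequence recognised by SOX factors such as the oligodendrocyte factor Sox10, and for CTGGCAC and CTGGTAC, cores recognised by the myelin factor Myrf. ACAAAG stood in 5 of the 10 windows, of 4 of the 8 genes, Mobp, Cnp, Mag and Opalin. It stood in 16.5% of the 32851 windows of all genes. CTGGCAC stood in 3 of the 10 windows, of Cnp and Mag, and in 4.19% of all windows. Both words occurred together in 3 of the 10 windows, of Cnp and Mag, and in 0.691% of all windows. The Mag windows that held them overlap one another. CTGGTAC stood in 1 of the 10 windows, that of Mog, and in 1.83% of all windows. Mobp held 6 copies of ACAAAG, all read as CTTTGT on its own strand, and it was the 1 window of the 32851 with that many. The windows of these 4 genes are printed 5′ to 3′ on the gene's strand, cut where the GENCODE gene begins, with the searched words in capitals; the words do not overlap one another, and a match is a run of letters, not a measured binding site.
Mobp (chr9:120149492-120149706, plus strand): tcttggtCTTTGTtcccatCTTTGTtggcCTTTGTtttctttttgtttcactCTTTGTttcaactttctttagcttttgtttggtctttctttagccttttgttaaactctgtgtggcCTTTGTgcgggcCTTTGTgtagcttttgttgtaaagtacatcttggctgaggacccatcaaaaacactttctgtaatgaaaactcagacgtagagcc
Cnp (chr11:100574689-100574903, plus strand): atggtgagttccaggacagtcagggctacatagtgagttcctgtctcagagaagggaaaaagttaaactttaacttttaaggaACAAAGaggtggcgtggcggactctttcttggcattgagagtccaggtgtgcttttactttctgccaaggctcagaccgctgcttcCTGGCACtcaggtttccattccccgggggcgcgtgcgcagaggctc
Mag (chr7:30914874-30915113, minus strand): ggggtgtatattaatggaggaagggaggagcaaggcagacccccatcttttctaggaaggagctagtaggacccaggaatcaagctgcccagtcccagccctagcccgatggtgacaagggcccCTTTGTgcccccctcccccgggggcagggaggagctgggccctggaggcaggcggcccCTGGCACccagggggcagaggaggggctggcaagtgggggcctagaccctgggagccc
Opalin (chr19:41077114-41077363, minus strand): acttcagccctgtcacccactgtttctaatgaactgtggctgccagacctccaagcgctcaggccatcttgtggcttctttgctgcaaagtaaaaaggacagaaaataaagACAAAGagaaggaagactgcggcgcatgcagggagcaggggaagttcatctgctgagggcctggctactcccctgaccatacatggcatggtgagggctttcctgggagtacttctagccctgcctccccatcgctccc

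The genes of compact myelin, Mbp and Mobp, were higher in MI libraries than in Sham libraries on average, and the Sham libraries fell into a low and a high trio. Mbp stood at 2659, 2558, 2503, 2536, 2293 and 2106 CPM in MI 1 to 6, against 1179, 1120.3, 1395, 2286, 1999.8 and 2021 CPM in Sham 1 to 6. Sham 1, 2 and 3 were low and Sham 4, 5 and 6 were close to the MI libraries, 1 of them above the lowest MI library. Mbp averaged 2443 ± 204 CPM in MI and 1667 ± 496 CPM in Sham (SD, n = 6 each). Its log2 fold change was 0.55 (SE 0.17; edgeR quasi-likelihood test, Benjamini-Hochberg adjusted p = 0.597). Mobp stood at 938, 1120.4, 836, 811, 847 and 796 CPM in MI 1 to 6, against 406, 355, 450.0, 810.3, 701 and 834 CPM in Sham 1 to 6. The same 3 Sham libraries were low, and 2 Sham libraries lay above the lowest MI library. The log2 fold change of Mobp was 0.59 (SE 0.21).

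The surface proteins Mag and Mog followed the same libraries. Mag stood at 201, 169, 179, 176, 164 and 155 CPM in MI 1 to 6, against 85.1, 85.3, 105, 166, 139 and 145 CPM in Sham 1 to 6. Its lowest MI library lay below 1 Sham library, Sham 4, and its log2 fold change was 0.53 (SE 0.16). Mog ran from 54.8 to 72.8 CPM over the 6 MI libraries, against 30.0 to 35.9 CPM in Sham 1, 2 and 3 and 46.7 to 62.4 CPM in Sham 4, 5 and 6, with a log2 fold change of 0.50 (SE 0.17).

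Among the channel, junction and membrane proteins, Cnp stood at 369, 362, 333, 315, 308 and 296 CPM in MI 1 to 6, against 178, 189, 216, 332, 263 and 299 CPM in Sham 1 to 6. Sham 4 and Sham 6 exceeded the lowest MI library, and the log2 fold change of Cnp was 0.43 (SE 0.14). Cldn11 ran from 105 to 137 CPM over the MI libraries, against 63.3 to 71.9 CPM in Sham 1, 2 and 3 and 88.0 to 115 CPM in Sham 4, 5 and 6; its log2 fold change was 0.50 (SE 0.14). Mal ran from 208 to 309.7 CPM over the MI libraries, against 116 to 132 CPM in Sham 1, 2 and 3 and 170.0 to 229 CPM in Sham 4, 5 and 6, with a log2 fold change of 0.52 (SE 0.18). Opalin, the least abundant of the genes, stood at 30.1, 27.8, 29.4, 24.99, 22.4 and 21.9 CPM in MI 1 to 6, against 12.2, 12.6, 14.5, 24.5, 19.2 and 18.1 CPM in Sham 1 to 6. It had the highest log2 fold change of the 9, 0.63 (SE 0.16).

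The receptor gene Gpr37 was the most even of the genes over the MI libraries. It stood at 76.9, 74.8, 72.8, 82.2, 74.9 and 76.3 CPM in MI 1 to 6, against 42.8, 42.4, 48.8, 77.2, 71.3 and 74.3 CPM in Sham 1 to 6. Its coefficient of variation was 4.21% over the MI libraries, where the other 8 genes had 8.35% to 16.0%, and 27.7% over the Sham libraries, where the others had 25.1% to 36.1%. Sham 4 and Sham 6 lay above its lowest MI library, and its log2 fold change was the lowest of the 9, 0.36 (SE 0.15; edgeR adjusted p = 0.635).

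**Figure D1:**
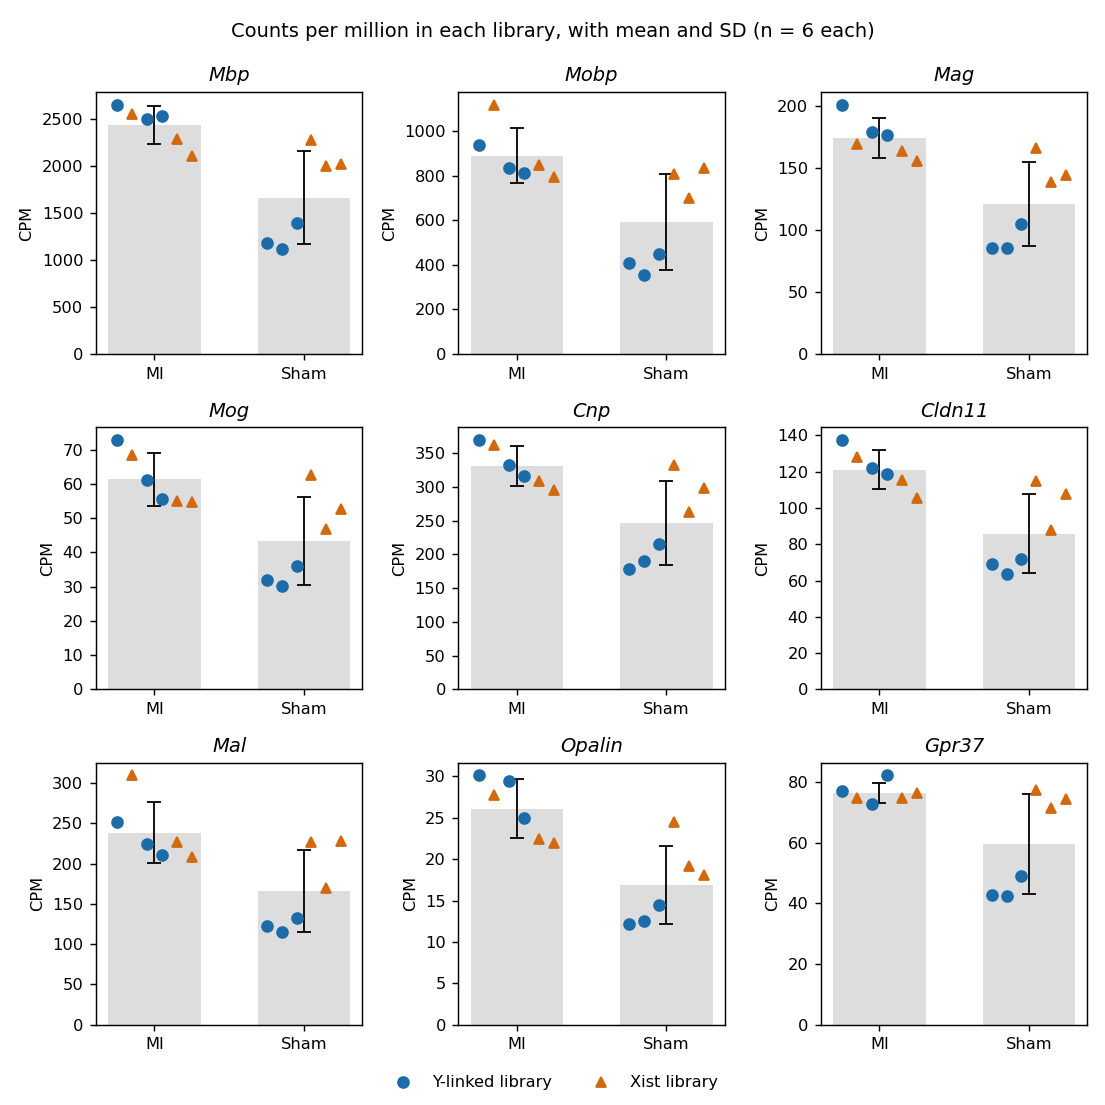
CPM of each gene in the 6 MI libraries (left) and the 6 Sham libraries (right); bars are means, error bars are SD, circles are libraries with Y-linked counts and triangles libraries with Xist counts. In every panel the 3 Sham circles lie lowest, with Gpr37 between 42.4 and 48.8 CPM there and between 72.8 and 82.2 CPM in the MI libraries.

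No gene was called, that is had an adjusted p under 0.05, in MI against Sham by edgeR (0 of 16829 tested, 0.00%), and so none of the 9. At an unadjusted p under 0.05 by edgeR, 665 genes were higher in MI (3.95%) and 605 lower, and all 9 genes were among the higher ones; the contrast chose the genes, so nothing is read from that count. DESeq2 called 10 genes (0.0594%), none of the 9, with Opalin nearest at an adjusted p of 0.0834. None of the 9 had all 6 MI libraries above all 6 Sham libraries, as 42 genes did (0.250%). Their median log2 fold change was 0.52, beside -0.01 over all genes tested. With bulk tissue, a difference in the number of oligodendrocytes and a difference in myelin RNA per oligodendrocyte cannot be told apart.

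The 2 trios of Sham libraries coincided with a division the labels do not give. Summed counts of the Y-linked genes Ddx3y, Eif2s3y, Kdm5d and Uty were 3885 to 4746 in MI 1, 3 and 4 and in Sham 1, 2 and 3, with 18 to 50 counts of the X-inactivation transcript Xist. The other 6 libraries, MI 2, 5 and 6 and Sham 4, 5 and 6, had 27676 to 36497 counts of Xist and 1 to 7 Y-linked counts. They are called Y-linked and Xist libraries here. Both sets hold 3 libraries of each group, but in the Sham group the set and anything else that Sham 1, 2 and 3 share cannot be told apart.

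Within the Y-linked libraries each gene was 1.73 to 2.15 times as high in MI as in Sham, and within the Xist libraries 1.01 to 1.19 times. Mbp averaged 2566 ± 82.0 CPM in Y-linked MI libraries and 1232 ± 145 CPM in Y-linked Sham libraries (SD, n = 3 each). In the Xist libraries Mbp averaged 2319 ± 227 CPM in MI and 2102 ± 159 CPM in Sham (SD, n = 3 each). Gpr37 averaged 77.3 ± 4.71 CPM in Y-linked MI libraries and 44.7 ± 3.60 CPM in Y-linked Sham libraries (SD, n = 3 each), and in the Xist libraries 75.3 ± 0.875 CPM in MI and 74.3 ± 2.97 CPM in Sham (SD, n = 3 each). Among MI libraries the Y-linked mean of a gene was 0.922 to 1.17 times its Xist mean, and among Sham libraries 0.517 to 0.658 times its Xist mean.

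The median log2 fold change of the 9 genes was 0.95 in the Y-linked libraries (range 0.79 to 1.10) and 0.14 in the Xist libraries (range 0.02 to 0.25). All 3 Y-linked MI libraries lay above all 3 Y-linked Sham libraries for 9 of the 9 genes, as they did for 10.9% of all genes tested; in the Xist libraries this held for 0 of the 9 and 2.88% of all genes. In an edgeR fit of the Y-linked libraries alone, 101 genes were called higher in MI (0.602% of 16777 tested), the 9 among them, and in the Xist libraries alone no gene was called by edgeR (0.00% of 16975), with 133 higher and 83 lower at an unadjusted p under 0.05. These counts share the contrast that chose the genes and are given as a description.

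**Figure D2:**
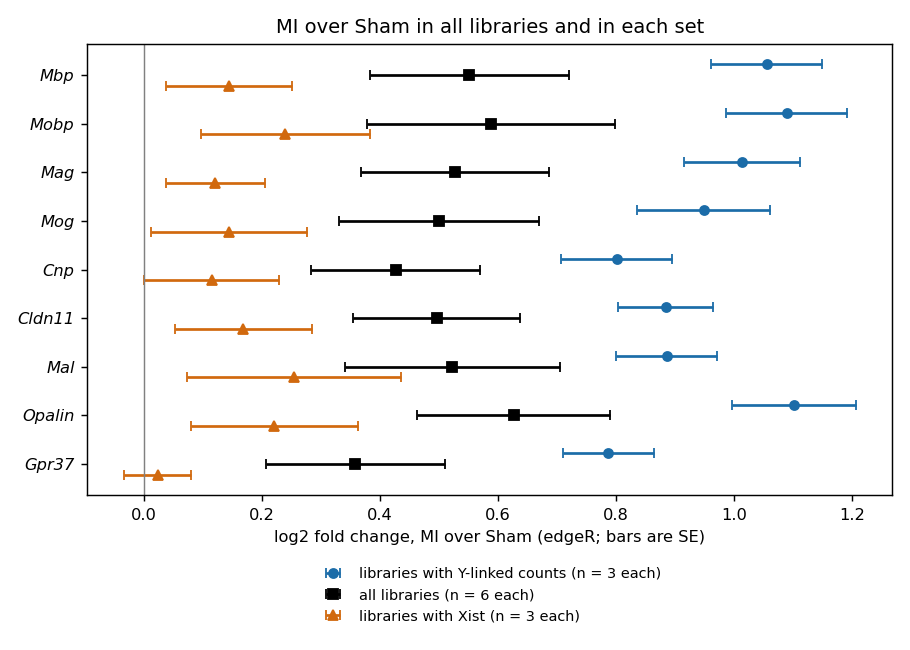
Log2 fold change of MI over Sham for each gene (edgeR; bars are SE), in the Y-linked libraries (circles), in all libraries (squares) and in the Xist libraries (triangles). The circles lie between 0.79 and 1.10 and the triangles between 0.02 and 0.25.

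Whether the log2 fold change of MI over Sham differed between the sets was tested over all genes as an interaction term in edgeR. Gpr37 was called, with a difference of 0.77 on the log2 scale (SE 0.09, adjusted p = 0.0476), the smallest p of the 16829 genes. It was 1 of 2 genes called (0.0119%); the other, Trh, was named after its value was seen and had the opposite sign, -5.51. Mag (0.90, SE 0.13, adjusted p = 0.0765) and Mbp (0.92, SE 0.14, adjusted p = 0.0835) came next among the 9 and did not pass, and the other 6 had differences of 0.64 to 0.89 with adjusted p of 0.234 to 0.505 in the same edgeR fit. The call on Gpr37 rests on a small margin: of 18 alternative fits it passed in 5 and not in 13, with adjusted p from 1.3e-08 to 0.297 and the difference between 0.70 and 0.83. It was lost on leaving out any 1 of MI 1 to 6 or Sham 1, 2, 5 or 6 (adjusted p 0.0888 to 0.245 by edgeR), and with library totals, the strict filter or Sham 1 and Sham 6 left out together (0.133, 0.0639 and 0.297). A larger MI effect on myelin genes in the Y-linked libraries was known from earlier results on the same libraries.

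Other cell types were followed by their marker genes in the same libraries, and none of these markers was called. The 7 meningeal fibroblast markers summed to 97.6 to 186 CPM over the MI libraries, against 220.1 to 351 CPM in Sham 1, 2 and 3 and 70.2 to 221 CPM in Sham 4, 5 and 6, and all 7 were detected in every library. All 7 had a negative log2 fold change (median -0.81 in all libraries, -1.59 in the Y-linked and 0.19 in the Xist libraries). Sham 1 and Sham 3, of the trio lowest in myelin genes, had the highest meningeal sums of the 12 libraries, and Sham 2 was level with Sham 4. The sums rest mostly on Dcn and Igf2; with each of the 7 markers weighted alike, as the mean of their centred log2 CPM, Sham 1 was highest (1.55), followed by Sham 2 (0.77), Sham 4 (0.50) and Sham 3 (0.42). The 6 CA1 pyramidal neuron markers, which check the dissected region, were present in every library at 915 to 1220.5 CPM in MI and 615 to 1398 CPM in Sham, Sham 1 being lowest. The 5 dentate granule neuron markers, of the neighbouring region, summed to 34.7 to 253 CPM in MI and 47.0 to 684 CPM in Sham, with Sham 6 highest. Some of these lists also had a larger median log2 fold change in the Y-linked than in the Xist libraries, 0.48 against -0.02 for the CA1 markers, 0.30 against -0.71 for the dentate markers and 0.82 against -0.18 for the 3 tested choroid plexus markers, beside 0.95 against 0.14 for the 9 genes. The median interaction with the set was 0.72, 1.17 and 1.09 for these lists and 0.81 for the 9 genes, and none of the markers was called in it. The part of tissue composition in the myelin gene values was not tested. Without Sham 1 and Sham 6 the median log2 fold change of the 9 genes was 0.52. Sham 1 is of the low trio and Sham 6 of the high trio, so this value does not bear on tissue composition. Leaving out Sham 1 alone gave 0.44, and leaving out Sham 6 alone gave 0.58.

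The 7 astrocyte markers had a median log2 fold change of -0.02, the 6 microglia markers 0.01 and the 5 endothelium markers 0.07 in MI against Sham, with the summed markers of MI libraries inside or near the range of the Sham libraries. The astrocyte markers summed to 5567 to 6778 CPM in MI and 5499 to 7686 CPM in Sham. Of the 5 choroid plexus markers 3 were tested, with a median of 0.14 and sums of 17.3 to 33.6 CPM in MI and 9.22 to 41.7 CPM in Sham. Of the 5 genes of peripheral nerve myelin, which Schwann cells make, 3 passed the filter (Prx, Ncmap and Drp2), with log2 fold changes of 0.10, 0.26 and 0.00.

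The 9 genes varied together from library to library, within a group as well as between groups. The SD of log2 CPM over the 12 libraries was 0.35 for Gpr37 to 0.52 for Mobp, above that of 90.8% to 96.6% of 13590 genes with a mean of at least 50 counts, whose median SD was 0.14. The ratio of a pair of the genes varied much less: over the 36 pairs the SD of the log2 ratio was 0.06 to 0.22, with a median of 0.13. Mbp and Mag kept the steadiest ratio (0.06), followed by Cnp and Cldn11 (0.07); Mobp and Gpr37 had the least steady (0.22). Mobp and Mal each had their steadiest ratio with the other (0.11), although several pairs of other genes were steadier. Both were highest in MI 2, while the others were highest in MI 1 except Gpr37, which was highest in MI 4.

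Each gene's Pearson correlation with the mean of the other 8 was 0.943 for Gpr37 to 0.992 for Cnp over the 12 libraries, and Spearman's rho was 0.734 for Gpr37 and 0.825 to 0.986 for the others. With the group means subtracted, Pearson's r was 0.916 to 0.986. Without Sham 1 and Sham 2, the libraries farthest from the median, r was 0.833 for Gpr37 and 0.912 to 0.989 for the other 8. Co-variation was part of how the genes were chosen, and at each point the genes share 1 library with its depth and tissue composition, so the values carry no test. Gpr37 departed from the others chiefly in MI libraries: its centred log2 CPM lay below the mean of the other 8 by -0.24, -0.27 and -0.17 in MI 1, 2 and 3, and above it by 0.20 in Sham 5.

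**Figure D3:**
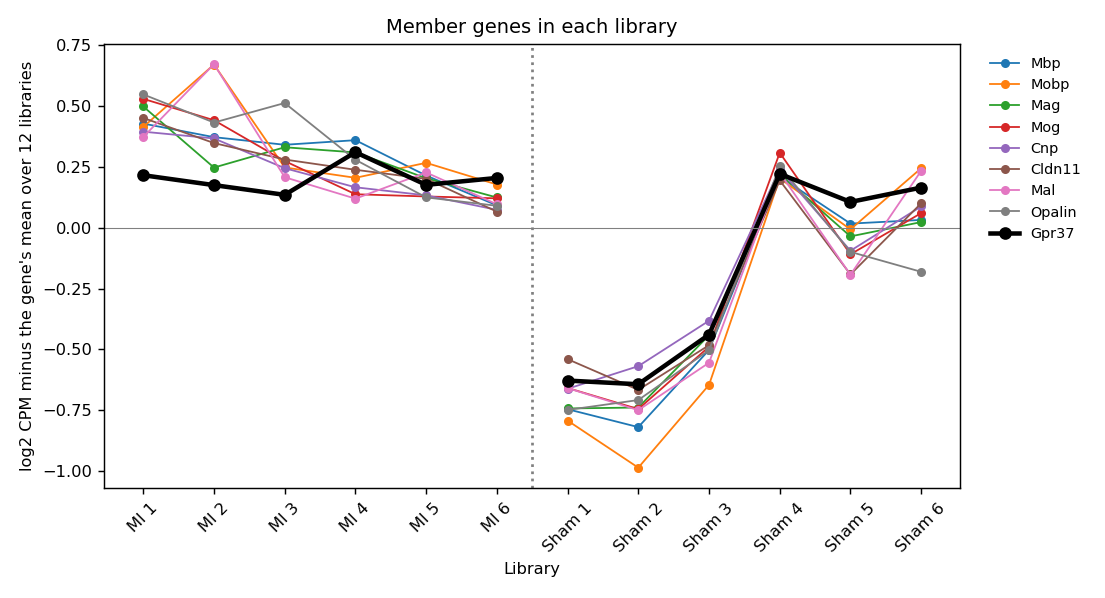
Log2 CPM of each gene minus its mean over the 12 libraries; lines join the values of a gene within a group and carry no order, and Gpr37 is the thick black line. All 9 genes lie between -0.99 and -0.38 in Sham 1, 2 and 3, and Gpr37 stays between 0.14 and 0.31 in the MI libraries.

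**Figure D4:**
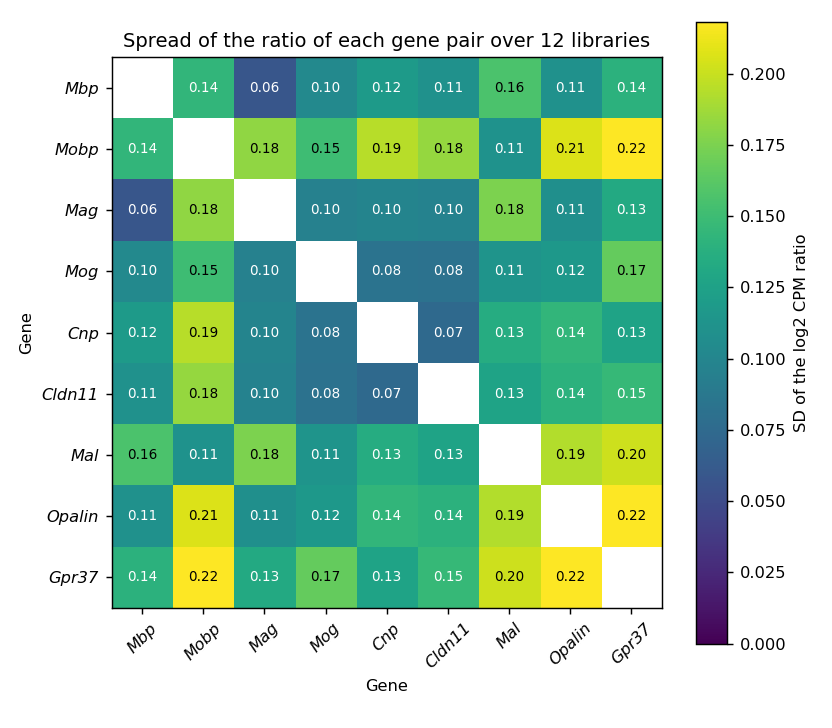
SD over the 12 libraries of the log2 CPM ratio of each pair of genes; darker cells are steadier ratios. Mbp with Mag is steadiest at 0.06, and the row of Gpr37 runs from 0.13 to 0.22.

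Of 12560 other genes compared, among those most like the mean of the 8 myelin genes over the 12 libraries by Pearson's r were Tspan2 (0.986), Prr18 (0.986), Tmem63a (0.981), Plekhb1 (0.981), Tmem88b (0.979), Pde8a (0.978), Adamts4 (0.976), Phldb1 (0.971) and Trf (0.965). Tspan2, a tetraspanin of oligodendrocytes, averaged 134 ± 13.5 CPM in MI and 102 ± 20.3 CPM in Sham (SD, n = 6 each). Those most like Gpr37 by Pearson's r were Gab1 (0.981), Slc44a1 (0.979), Plekhb1 (0.974), Tmem88b (0.970) and Enpp4 (0.967). By rank the likeness was weaker, with Spearman's rho of 0.860, 0.503, 0.888, 0.727 and 0.881 in that order. Plekhb1 and Tmem88b were near to both by Pearson's r. Gab1, an adaptor of receptor tyrosine kinases, averaged 35.0 ± 1.28 CPM in MI and 30.5 ± 4.63 CPM in Sham, and Slc44a1, a choline transporter, 103 ± 2.02 CPM in MI and 91.1 ± 16.3 CPM in Sham (SD, n = 6 each).

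Beyond the 9, 29 other genes of mature oligodendrocytes and myelin were followed, and all 29 had a positive log2 fold change, with a median of 0.39, none of them called by edgeR. At an unadjusted p under 0.05 by edgeR, 25 of the 29 were higher in MI, beside 3.95% of all genes tested. The list was chosen with earlier results known, and several of its genes varied with the 9 over the same libraries. Nothing separate is read from that count. The transcription factor Nkx6-2 had the largest, 0.77 (SE 0.18), at 7.15 ± 0.666 CPM in MI and 4.16 ± 1.39 CPM in Sham (SD, n = 6 each). Hapln2, which binds the matrix around nodes of Ranvier, had 0.62 (SE 0.18), Fa2h, which hydroxylates the fatty acids of myelin lipids, 0.49 (SE 0.15), and the tetraspanin Tspan2 0.39 (SE 0.12). As with the 9 genes, the median was larger in the Y-linked libraries (0.74) than in the Xist libraries (0.09); the difference of these medians was not tested.

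The earlier stages of the lineage were followed in the same way. Of 17 genes of oligodendrocyte precursors and newly formed oligodendrocytes, 10 had a positive and 7 a negative log2 fold change, with a median of 0.04, and none was called. The 4 with the smallest p were Enpp6 (0.42, SE 0.14) and Bcas1 (0.44, SE 0.19), both of newly formed cells, and Sox10 (0.35, SE 0.12) and Olig1 (0.23, SE 0.09), lineage factors of all stages. In that order they had 0.78, 0.91, 0.69 and 0.46 in the Y-linked libraries. In the Xist libraries they had 0.11, 0.09, 0.05 and 0.02. Over all 17 genes the medians were 0.17 in the Y-linked and 0.02 in the Xist libraries. The precursor receptor Pdgfra averaged 63.2 ± 4.25 CPM in MI and 67.2 ± 6.76 CPM in Sham (SD, n = 6 each), chosen here after its value was seen. Of 12 genes of the axoglial junction and the node of Ranvier, 8 were positive, with a median of 0.06, and none was called; Cntn2, Epb41l3, Nfasc and Cntnap1, which join axon and glia beside the node, had log2 fold changes of 0.23, 0.17, 0.13 and 0.07.

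No gene among the known partners of the 9 was called. Of 9 tested ligands and receptors of myelin-associated growth inhibition, to which Mag belongs, 5 were positive, with a median of 0.00; Ngfr had 0.41 (SE 0.22) at 2.80 ± 0.430 CPM in MI and 2.12 ± 0.729 CPM in Sham (SD, n = 6 each), Tnfrsf19 had -0.15, Rtn4 (Nogo) -0.07 and Rtn4rl1 -0.03. The 6 genes of Mbp mRNA transport and local translation had a median of 0.02, with Qk at 0.06, Tppp at 0.03, Fyn at 0.03, Kif1b at 0.01, Hnrnpa2b1 at -0.04 and Hnrnpf at -0.12. Of the relatives of Gpr37, its paralogue Gpr37l1 had 0.07 (SE 0.09), its proposed ligand precursor Psap 0.01 (SE 0.06), and the ubiquitin ligase gene Stub1 0.01 (SE 0.08).

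The authors' deposited table of genes higher in MI holds 542 genes, and 526 of the genes tested here are in it (3.13%). It lists 8 of the 9 genes, all but Gpr37, at ranks 156 to 493 by adjusted p. In the authors' deposited table their log2 fold changes were 0.35 (Cnp) to 0.55 (Mobp), with adjusted p of 0.0232 to 0.0458. The authors' deposited log2 values were less spread in Sham than log2 CPM from the counts, with an SD over the 6 Sham libraries of 0.21 to 0.26 for the 8 genes against 0.36 to 0.54 from the counts. Over the 6 MI libraries the SD was 0.17 to 0.24 in the authors' deposited table and 0.12 to 0.21 from the counts.

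The deposited values and the counts also differed in how the sets stood. For each of the 1059 genes in the authors' 2 deposited tables, the mean over the 6 Y-linked libraries equalled the mean over the 6 Xist libraries to within 5.0e-09 on the log2 scale. From the counts, the size of that difference had a median of 0.13 and a largest value of 1.81 over the 1025 of these genes tested, and for the 8 genes the Y-linked mean minus the Xist mean was -0.52 to -0.21. The steps that made the deposited log2 values are not given in the sources used here. With the set as a covariate, edgeR again called no gene, and DESeq2, an alternative chosen after seeing these values, called 35 genes higher in MI (0.208%). Of the 9 genes, 6 were among the 35 (Mbp, Mobp, Mag, Cldn11, Mal and Opalin, DESeq2 adjusted p 0.0171 to 0.0399), while Mog (0.0648), Cnp (0.0666) and Gpr37 (0.136) did not pass; the contrast is again the one that chose the genes.

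**Figure D5:**
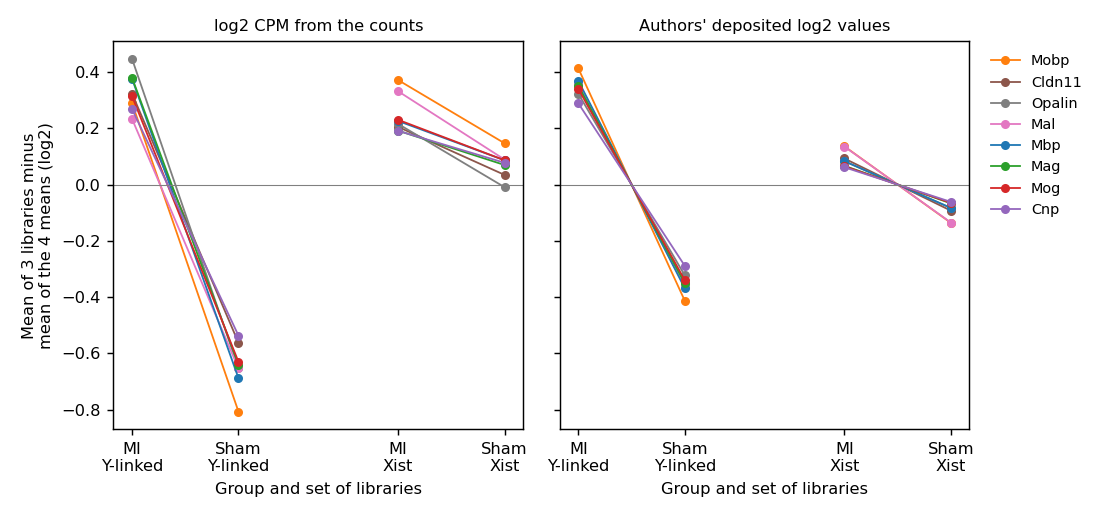
Means of 3 libraries for the 8 genes of the authors' deposited table, as log2 CPM from the counts (left) and as the authors' deposited log2 values (right), by group and set, each gene minus the mean of its 4 means. From the counts the Y-linked Sham mean is the lowest of the 4 for each gene, and in the deposited values the 2 sets lie symmetrically about 0.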

How the data were processed

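RNA was measured in 12 libraries, 6 MI and 6 Sham. The authors deposited raw read counts for each Ensembl gene ID; FastQC 0.11.5, STAR 2.5.2b, featureCounts, Subread 1.5.1 and mm10 are named in the submitters' processing notes. The authors also deposited 2 gene tables with adjusted p-values, log2 fold changes and, for each library, log2 values; the steps that made these, and the strand setting of the counting, are not given in the sources used here. Symbols and coordinates came from GENCODE M21 (48349 of 48709 IDs matched), promoter sequences from RefSeq GRCm38.p6. Counts were fitted over all genes with edgeR 4.0.16 (R 4.3.3; TMM scaling, filterByExpr, robust quasi-likelihood test, Benjamini-Hochberg adjustment, threshold 0.05) after testing the scripts on simulated data; the median biological coefficient of variation was 11.3%. CPM used TMM-scaled totals, and log2 CPM a prior count of 2. DESeq2 1.42.0, other scaling, filters (none, or a strict one of at least 50 counts in 6 libraries), the sex-linked set and libraries left out were alternatives. Values were processed and plotted with Python 3.11.15 and matplotlib 3.10.9. No pair of libraries of a group was a duplicate: chi-square per degree of freedom was 5.76 to 71.3 over 30 pairs. The members and lists were chosen with earlier results of these data known. Named genes were the members, the 4 genes of smallest p in each longer list, all genes of lists of 6 or fewer, and the genes of highest correlation, 10 with the mean of 8 members and 5 with Gpr37. Some genes under this rule are not reported here.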

Additional observations from a re-analysis of the deposited data

Results flagged for a closer look

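The log2 fold change of Gpr37, MI over Sham, differed between the Y-linked and the Xist libraries by 0.77 (edgeR interaction, adjusted p = 0.0476 over all genes). The call did not hold in 13 of 18 alternative fits, among them leaving out any 1 of 10 of the 12 libraries (adjusted p 0.0888 to 0.245 by edgeR). Mag and Mbp had larger differences, 0.90 and 0.92, that did not pass. A larger difference of MI from Sham for myelin genes in the Y-linked libraries was known from earlier results on these libraries. Gpr37 was higher in MI than in Sham by 0.79 in the Y-linked libraries (SE 0.08) and by 0.02 in the Xist libraries (SE 0.06). It averaged 44.7 CPM in the Y-linked Sham libraries, Sham 1, 2 and 3. In the other combinations of group and set it averaged 74.3 to 77.3 CPM. The set cannot be told apart here from anything else that Sham 1, 2 and 3 share. In none of the 18 group tests (9 genes in 2 groups) did 1 library stand far from the other 5 by Dixon's criterion, although chance alone marks about 1 group in 20.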

How the results depend on the processing

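In MI against Sham, 0 genes were called by edgeR, against 10 by DESeq2, 51 by DESeq2 with the sex-linked set as a covariate (chosen after seeing the data), and 211 in the Y-linked libraries alone by edgeR (101 higher and 110 lower). Other scaling, filters, the set as a covariate in edgeR, the Xist libraries alone and each left-out library gave 0 called genes. The median log2 fold change of the 9 genes was 0.52, 0.95 in the Y-linked and 0.14 in the Xist libraries, and 0.44 to 0.63 on leaving out each library. With the replicate number as a replicate block it was 0.56, no gene was called, and the block changed no call of MI against Sham. Same-numbered libraries correlated at -0.35 to 0.40, and 3 of 6 correlated best with their own number. Numbers 2 and 4 join libraries of opposite sex-linked sets and had the lowest correlations, -0.35 and -0.32. These values leave pairing undecided, and the labels tie the numbers to nothing shared.

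The interaction with the set gave 2 called genes, 0 with library totals, 0 with the strict filter, 24 without a filter, 81 by DESeq2 and 0 without Sham 1 and Sham 6 (these last 2 chosen after seeing the data). Leaving out each library gave 0 to 61 called genes, with 14 without Sham 3 and 61 without Sham 4. The cause was not tested. Co-variation held throughout, with a median SD of the pair ratios of 0.12 to 0.14. Depth is not the limit for these genes, the lowest of which had 265 counts in a library.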
